A study of Mus musculus with 17 samples.

Results

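The tricarboxylic acid (TCA) cycle was followed through 9 genes of its enzymes in the newborn mouse. They were *Cs*, *Idh3a*, *Idh3b*, *Idh3g*, *Ogdh*, *Dlst*, *Suclg1*, *Fh1* and *Mdh2*, taken by their Ensembl identifiers in the GENCODE annotation from a table of 55359 genes. All 9 genes passed the filter on low counts in both organs. RNA-seq had been performed on testes and forebrain, which the sample labels name hippocampus, of male pups at postnatal day 1. The libraries came from 2 WT, 3 *Ocn*+/− and 3 *Ocn*−/− testes and 3 forebrains of each genotype. All belonged to the *Ocn*GK strain (129/SvEv), whose mutant allele is one of osteocalcin, a hormone made by bone. Per the study's methods WT pups were born from WT mothers, whereas both mutant genotypes were born from *Ocn*−/− mothers. Against WT, the genotype of the pup therefore cannot be told apart from that of its mother or from the litter, and *Ocn*−/− against *Ocn*+/− is the comparison within 1 maternal genotype. Libraries were poly(A)-selected bulk RNA, in which fewer cells of a type and less RNA per cell cannot be told apart.

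The TCA cycle burns acetyl groups to carbon dioxide in the mitochondrial matrix and hands the electrons to the respiratory chain. Citrate synthase (*Cs*) joins acetyl-CoA to oxaloacetate, and isocitrate dehydrogenase, built from the subunits *Idh3a*, *Idh3b* and *Idh3g*, and the 2-oxoglutarate dehydrogenase complex, with *Ogdh* and *Dlst*, then release the carbon dioxide. Succinyl-CoA ligase (*Suclg1*, its alpha subunit), fumarase (*Fh1*) and mitochondrial malate dehydrogenase (*Mdh2*) close the cycle. Glycolysis, which delivers pyruvate to it, served as the contrast, with a list of 17 genes.

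Total counts were 7302401 to 8289015 per testis and 6518151 to 14621584 per forebrain. The forebrain library WT 3 stood apart, with the fewest counts of all and 8.5% of them from the ribosomal RNA gene *Rn18s-rs5*, so the forebrain changes of the 9 genes against WT are given with and without it. The osteocalcin genes *Bglap* and *Bglap2* had 0 to 5 and 0 counts per library, which did not allow the genotypes to be checked. The summed level of 5 Sertoli cell markers was 876 to 1360 CPM (counts per library size, after TMM normalization within the organ) in testes and 43.1 to 60.3 CPM in forebrain, and that of 5 forebrain markers 1080 to 1910 CPM in forebrain and 9.84 to 12 CPM in WT testes. The 5 hippocampus markers summed to 211 to 383 CPM in forebrain and to 199 to 313 CPM in testes, so that their sum did not set the organs apart. By edgeR 1 of them was higher and 3 were lower in testes, where 44.5% and 39.9% of all genes were. Markers of other cells differed in level between genotypes. Summed over 5 Leydig cell markers, the level was 1620 to 1710 CPM in WT testes, 690 to 1220 in *Ocn*+/− and 718 to 1100 in *Ocn*−/− testes, with no defining marker at 0. By edgeR 0 of these 5 passed in either genotype, where 8.25% and 5.64% of all genes did. At an unadjusted p under 0.05 there were 1 and 3, where 25.9% and 23% of all genes had such a p. *Hsd3b1* was not lower, with means of 311 CPM (WT), 322 CPM (*Ocn*+/−) and 388 CPM (*Ocn*−/−). The 5 neutrophil markers summed to 40.6 to 66.3 CPM in WT testes and to 3.44 to 13.8 CPM in mutant ones, and by edgeR 3 and 4 of the 5 fell in *Ocn*+/− and *Ocn*−/− testes, where 4.36% and 3.09% of all genes did. Of the 5 Sertoli cell markers 1 rose in both, where 3.89% and 2.54% of all genes rose. It was *Sox9*, with means of 50.1 CPM (WT), 94.8 CPM (*Ocn*+/−) and 107 CPM (*Ocn*−/−). The erythroid markers summed to 930 to 2490 CPM in WT testes, to 311 to 1500 in *Ocn*+/− ones and to 486 to 865 in *Ocn*−/− ones, and to 189 to 254, 127 to 130 and 155 to 217 CPM in the forebrains. *Hba-a1*, an alpha globin, made up most of the forebrain sum (198, 111 and 151 CPM on average), and in *Ocn*−/− forebrain the list was split, with 2 of 4 tested genes higher (*Hbb-bt*, log2 fold change 0.38, and *Alas2*, 0.12) and 2 lower. By edgeR 0 of 4 passed in testes of either mutant genotype, where 8.25% and 5.64% of all genes did. Of these 4, 1 fell in *Ocn*+/− forebrain (*Hba-a1*, -0.84) and 1 in *Ocn*−/− forebrain (*Slc4a1*, -2.52), where 2.68% and 3.05% of all genes fell. The forebrain markers summed to 1450, 1590 and 1910 CPM in WT forebrains, the last being WT 3, and to 1080 to 1370 CPM in mutant ones. Among them *Emx1* was not lower, with means of 13.5 CPM (WT), 15.6 CPM (*Ocn*+/−) and 13.7 CPM (*Ocn*−/−). By edgeR 0 and 1 of the 5 fell in *Ocn*+/− and *Ocn*−/− forebrain, where 2.68% and 3.05% of all genes did. The olfactory bulb markers summed to 110 to 133 CPM in WT, 200 to 233 in *Ocn*+/− and 85.9 to 173 in *Ocn*−/− forebrain. Of the olfactory bulb markers *Cdhr1* differed most in CPM (9.42, 81.9 and 38 CPM on average), while *Tshz1*, at 77.2, 84.1 and 66.5 CPM, was not higher in *Ocn*−/− forebrain. By edgeR 0 of these 5 passed in either genotype, where 3.89% and 4.85% of all genes did. At an unadjusted p under 0.05 there were 4 and 1, where 20.3% and 21.7% of all genes had such a p. What part the cells behind these markers had in the results below was not tested.

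The genes differed in level per length, for which CPM were normalized by TMM over all 17 libraries together. In WT forebrain *Cs* (chromosome 10, 128172837 to 128198363, GRCm39) had the highest level with 116 ± 2.54 CPM per kb of its longest coding transcript (SD, n = 3), and *Mdh2* (chromosome 5, 135807292 to 135820882) followed with 112 ± 17. The ranges of *Cs* and *Mdh2* overlapped, so their order was not resolved by this length. With the union of all exons as the length they did not overlap, at 55.6 (54.7 to 57) for *Cs* and 33.2 (27.6 to 37.2) for *Mdh2*. *Idh3b* (55 ± 4.93), *Idh3a* (48.1 ± 0.152), *Idh3g* (43.6 ± 4.25) and *Dlst* (42.2 ± 4.04) formed a middle group, and *Suclg1* (24.2 ± 3.72), *Ogdh* (21.2 ± 0.0774) and *Fh1* (9.54 ± 2) lay lowest. Among neighbours in this order, the ranges of *Idh3a*, *Idh3g* and *Dlst* ran into each other, while *Idh3b*, *Suclg1*, *Ogdh* and *Fh1* were each clear of the next gene. In WT testes *Mdh2* came first with 67.1 ± 3.13 CPM per kb (n = 2). *Idh3b* (47.7 ± 0.707), *Idh3g* (46.7 ± 1.87), *Cs* (45.8 ± 1.62), *Suclg1* (41.7 ± 4.23), *Dlst* (35.7 ± 2.92), *Idh3a* (25.6 ± 3.11), *Ogdh* (16.7 ± 0.343) and *Fh1* (14.7 ± 0.0867) followed, and the ranges of *Idh3b*, *Idh3g*, *Cs* and *Suclg1* ran into each other. *Mdh2* exceeded *Fh1* 4.56-fold in WT testes, and 2.56-fold when the union of all exons was taken as the length. By that length *Cs* (22) came first, and *Idh3b* (20.2) and *Mdh2* (19.8) followed with overlapping ranges.

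Against WT, *Ocn*+/− forebrains had higher levels of all 9 genes, with a median log2 fold change of 0.19 (0.09 to 0.34), while the median of all genes tested was 0.01 and 50.9% of them were higher. In *Ocn*−/− forebrains 8 of 9 were higher, with a median of 0.23 (0 to 0.39), against a median of 0.01 and 51% of all genes. By edgeR's quasi-likelihood test only *Ogdh* passed an adjusted p of 0.05 in either genotype. The count is thus 1 of 9 genes in each, where 3.89% of all genes passed in *Ocn*+/− forebrains (1.21% higher, 2.68% lower) and 4.85% in *Ocn*−/− forebrains (1.8% higher, 3.05% lower). Without forebrain WT 3, 9 and 7 of 9 genes were higher, with medians of 0.14 and 0.22, and 0 of 9 passed, as against 183 and 189 of all genes called. Scaling by library size alone shifted the median of all genes to 0.09 and 0.11, and all 9 genes were higher in both genotypes.

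**Figure D1:**
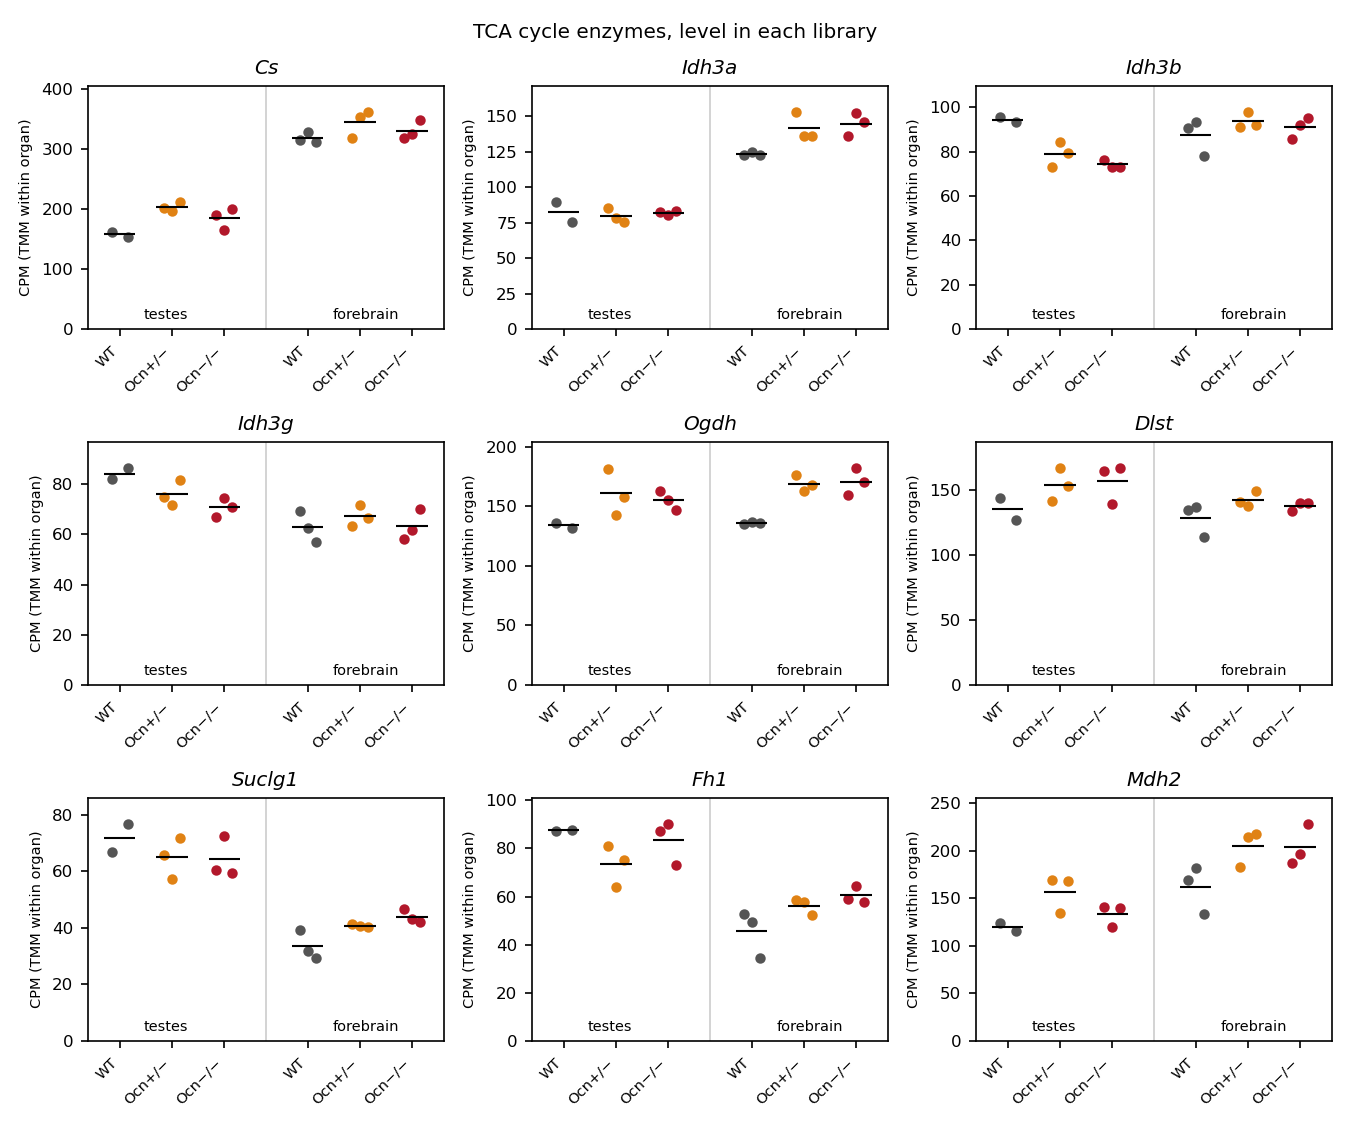
Level of each TCA cycle gene in CPM (y axis, from 0; TMM normalization within each organ) in WT (grey), *Ocn*+/− (orange) and *Ocn*−/− (red) testes and forebrains. Each point is a library and each line the mean of its group; the 6 mutant forebrains lie above the 3 WT forebrains for *Ogdh*, *Idh3a*, *Suclg1* and *Mdh2*, and the 6 mutant testes lie below the 2 WT testes for *Idh3b* and *Idh3g* and above them for *Cs* and *Ogdh*.

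*Ogdh* (chromosome 11, 6241551 to 6309233), the subunit that decarboxylates 2-oxoglutarate, had 135, 137 and 136 CPM in the WT forebrains. It had 176, 163 and 168 CPM in *Ocn*+/− and 159, 182 and 170 CPM in *Ocn*−/− forebrains. Every mutant forebrain lay above every WT one, with little spread among the WT libraries. The log2 fold change was 0.31 in *Ocn*+/− (SE 0.0769, 95% confidence interval 0.15 to 0.47, adjusted p = 0.0288 by edgeR) and 0.33 in *Ocn*−/− forebrains (SE 0.077, 0.16 to 0.49, adjusted p = 0.0201). With single libraries left out the value was 0.28 to 0.34 in *Ocn*+/− and 0.28 to 0.37 in *Ocn*−/− forebrains, but the call was not kept throughout. It was lost in both genotypes without WT 1 (adjusted p = 0.0763 and 0.0549), without WT 2 (0.0719 and 0.0576) or without WT 3 (0.0801 and 0.0648), where the log2 fold changes were still 0.31 and 0.33. It was also lost in *Ocn*+/− forebrains without any of the 3 *Ocn*+/− libraries (0.0527 to 0.0916) and in *Ocn*−/− forebrains without *Ocn*−/− 2 (0.0937). Of the 50-base words of *Ogdh*, 2.65% occur in other genes.

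*Dlst* (chromosome 12, 85157027 to 85182486), which carries the succinyl transferase of the same complex, did not follow *Ogdh* in size. It had 135, 137 and 114 CPM in WT, 141, 138 and 149 in *Ocn*+/− and 134, 140 and 140 in *Ocn*−/− forebrains. The *Ocn*+/− libraries lay above WT and the *Ocn*−/− libraries overlapped it, with log2 fold changes of 0.14 (-0.03 to 0.32) and 0.1 (-0.07 to 0.28) and adjusted p of 0.349 and 0.509 by edgeR. The WT library of 114 CPM was WT 3, without which the values were 0.07 and 0.03.

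The enzymes of the later steps did not pass edgeR's test in forebrain of either mutant genotype. *Suclg1* (chromosome 6, 73225365 to 73253894) had 39.2, 31.7 and 29.4 CPM in WT, 41.3, 40.8 and 40.3 in *Ocn*+/− and 46.6, 43.2 and 42.1 in *Ocn*−/− forebrains. The 3 genotypes did not overlap at all, and *Suclg1* was the only gene of the list whose *Ocn*−/− libraries lay wholly above the *Ocn*+/− ones, as 3.65% of all genes did. Its log2 fold change was 0.27 (0.04 to 0.51, adjusted p = 0.18 by edgeR) in *Ocn*+/− and 0.38 (0.14 to 0.62, adjusted p = 0.0574) in *Ocn*−/− forebrains. *Fh1* (chromosome 1, 175425290 to 175453205) had 52.7, 49.4 and 34.5 CPM in WT, 58.5, 57.7 and 52.4 in *Ocn*+/− and 59, 64.4 and 57.9 in *Ocn*−/− forebrains. The lowest *Ocn*+/− library lay just under the highest WT one, and the *Ocn*−/− libraries were all above. Its log2 fold changes were 0.28 (0.03 to 0.54, adjusted p = 0.195) and 0.39 (0.14 to 0.65, adjusted p = 0.0673). Without WT 3, the library of 34.5 CPM, they were 0.14 and 0.25 for *Fh1*, and 0.2 and 0.31 for *Suclg1*. Without WT 1, in contrast, both passed in *Ocn*−/− forebrain, at 0.52 (adjusted p = 0.0217) for *Suclg1* and 0.51 (adjusted p = 0.0379) for *Fh1*. *Mdh2* had 169, 182 and 133 CPM in WT, 183, 214 and 218 in *Ocn*+/− and 187, 196 and 228 in *Ocn*−/− forebrains. All mutant libraries were above WT, with WT 3 the lowest, and the log2 fold changes were 0.34 (adjusted p = 0.0886) and 0.33 (adjusted p = 0.0879), or 0.23 and 0.22 without WT 3. *Suclg1* and *Fh1* passed in *Ocn*−/− forebrain with DESeq2 (adjusted p = 0.0374 and 0.0423), which called 1121 of all genes there as against 780 by edgeR, and *Mdh2* joined them when no filter was applied to low counts (0.00366).

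The early enzymes differed among themselves in forebrain. *Idh3a* (chromosome 9, 54493575 to 54514730), the catalytic subunit, had 123, 125 and 123 CPM in WT and 136 to 153 CPM in the 6 mutant libraries, none of which overlapped WT. Its log2 fold changes were 0.19 (adjusted p = 0.173 by edgeR) and 0.23 (adjusted p = 0.101), and they were the same without WT 3. *Idh3b* (chromosome 2, 130121227 to 130126467) and *Idh3g* (chromosome X, 72820644 to 72830719), the other subunits, overlapped WT in both genotypes and had values of 0.1 and 0.06 and of 0.09 and 0. Without WT 3 these were 0.03 and -0.01 for *Idh3b* and 0.03 and -0.06 for *Idh3g*. *Cs*, the entry of the cycle, had 315, 328 and 311 CPM in WT and 317 to 361 CPM in mutant forebrains, overlapping WT in both, with values of 0.11 and 0.05, or 0.1 and 0.04 without WT 3. In all, 5 of 9 genes did not overlap WT on the upper side in each mutant genotype, where 12.9% of all genes did, and 0 lay wholly below, where 13.9% of all genes did.

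In testes the list was split, with 4 of 9 genes higher and 5 lower in *Ocn*+/− (median log2 fold change -0.05) and 4 higher and 5 lower in *Ocn*−/− mice (median 0), against 0.01 and -0.01 for all genes. By edgeR 0 of 9 passed an adjusted p of 0.05 in either genotype, where 8.25% and 5.64% of all genes did (4.36% and 3.09% as lower). At an unadjusted p under 0.05 there were 3 and 1, where 25.9% and 23% of all genes had such a p. DESeq2 called 1 of the 9 (*Cs*) in *Ocn*+/− testes and 0 in *Ocn*−/− testes, among 1696 and 1323 of all genes. The extremes were -0.26 and 0.39 in the former and -0.35 and 0.23 in the latter.

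*Cs* and *Mdh2* had the highest values in *Ocn*+/− testes. *Cs* had 162 and 153 CPM in WT, 201, 196 and 211 in *Ocn*+/− and 189, 164 and 200 in *Ocn*−/− testes. All mutant testes lay above WT, by 0.36 on the log2 scale in *Ocn*+/− (0.1 to 0.62, adjusted p = 0.0731 by edgeR) and 0.23 in *Ocn*−/− mice (-0.03 to 0.49, adjusted p = 0.273). The first value passed with DESeq2 (adjusted p = 0.0387), with only the 2 genotypes in the fit (0.0373), with library size alone (0.0337) and without the *Ocn*−/− testis 2 (0.0398). Of the 50-base words of *Cs*, 3.83% occur in other genes. *Mdh2* had 124 and 116 CPM in WT, 169, 134 and 168 in *Ocn*+/− and 141, 120 and 140 in *Ocn*−/− testes. Only the *Ocn*+/− group was free of overlap with WT, and the log2 fold changes were 0.39 (adjusted p = 0.0799) and 0.15 (adjusted p = 0.531). Without the *Ocn*+/− testis 2, the lowest of its group, *Mdh2* passed with 0.5 (adjusted p = 0.0195), and it also did with library size alone (0.47, adjusted p = 0.0414).

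*Idh3b* and *Idh3g*, partners of *Idh3a* in isocitrate dehydrogenase, had values of the other sign. *Idh3b* had 95.6 and 93.2 CPM in WT, 72.9, 84.3 and 79.2 in *Ocn*+/− and 76.2, 73.3 and 73.3 in *Ocn*−/− testes. Every mutant testis was below WT, by -0.26 (-0.51 to -0.01, adjusted p = 0.174 by edgeR) and -0.35 (-0.6 to -0.1, adjusted p = 0.0904). *Idh3g* had 82 and 86.4 CPM in WT, 74.8, 71.8 and 81.5 in *Ocn*+/− and 67, 74.3 and 71 in *Ocn*−/− testes. It was below WT in every mutant testis as well, with values of -0.15 and -0.25 (adjusted p = 0.469 and 0.226). *Idh3a*, by contrast, had 89.5 and 75.1 CPM in WT and 75.1 to 85.1 CPM in mutant testes, with values of -0.05 and 0. *Fh1* was lower in *Ocn*+/− testes without overlap (80.9, 64.1 and 75.1 against 87.3 and 87.7 CPM, -0.25, adjusted p = 0.246) and overlapped WT in *Ocn*−/− testes. Counting both directions, 3 genes lay wholly above and 3 wholly below WT in *Ocn*+/− testes, where 23.4% and 23.3% of all genes did. In *Ocn*−/− testes it was 2 above and 2 below, where 19.9% and 22.1% of all genes did. *Ogdh*, *Dlst* and *Suclg1* had values of 0.26, 0.18 and -0.14 in *Ocn*+/− and of 0.21, 0.21 and -0.16 in *Ocn*−/− testes. *Ogdh* had 136 and 132 CPM in WT, 181, 143 and 158 in *Ocn*+/− and 163, 155 and 147 in *Ocn*−/− testes, all mutant testes lying above WT.

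**Figure D2:**
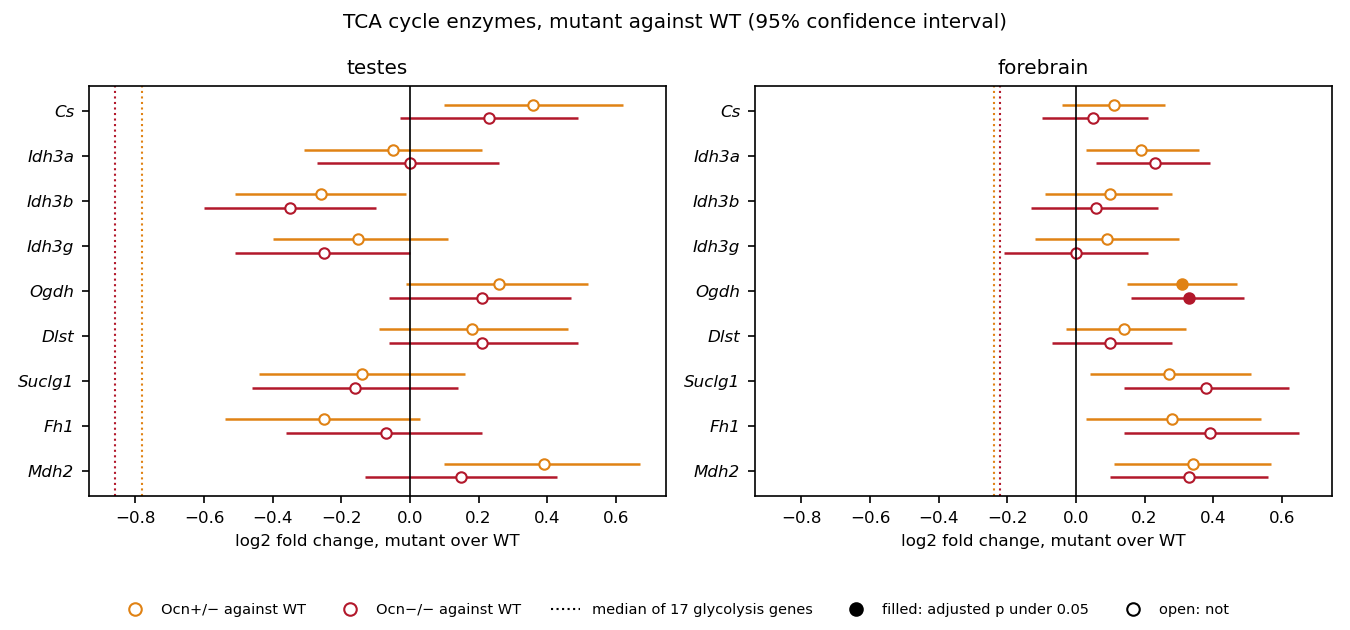
Log2 fold change of each TCA cycle gene (x axis) in *Ocn*+/− (orange) and *Ocn*−/− (red) against WT in testes (left) and forebrain (right), with 95% confidence intervals; filled points have an adjusted p under 0.05 and dotted lines are the medians of 17 glycolysis genes. Only *Ogdh* in forebrain is filled, at 0.31 and 0.33, and all points lie to the right of the glycolysis medians of -0.78 and -0.86 in testes and of -0.24 and -0.22 in forebrain.

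The mutant genotypes share the mothers' genotype. For *Ocn*−/− against *Ocn*+/−, 0 of 9 genes passed by edgeR in either organ, where 0% of all genes did in testes and 0.00622% in forebrain. In testes 1881 of all genes had an unadjusted p under 0.05, of the 9 genes 0 did, and DESeq2 called 70 genes, none of them on the list. In forebrain 515 of all genes and 0 of the 9 had such a p, and DESeq2 called 5 genes, none of the list. Values ranged from -0.24 (*Mdh2*, interval -0.49 to 0.02) to 0.18 (*Fh1*, -0.07 to 0.44) in testes and from -0.09 (*Idh3g*, -0.29 to 0.12) to 0.11 (*Suclg1*, -0.12 to 0.34, and *Fh1*, -0.14 to 0.35) in forebrain. Of the 9 genes 0 were without overlap in testes, where 7.52% of all genes lay wholly above and 8.02% wholly below, and in forebrain only *Suclg1* was, wholly above, where 3.65% of all genes lay wholly above and 4.12% wholly below.

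Whether the organs differed in their response was tested in a joint fit, with both mutant genotypes averaged and set against WT. The labels do not say whether testes and forebrains came from the same pups, and the fit took all libraries as separate. Of the 9 genes 0 passed, where 2.96% of all genes did (1.24% as higher and 1.71% as lower in testes). The nearest were *Suclg1* (testes minus forebrain -0.49, SE 0.157, adjusted p = 0.0869 by edgeR), *Idh3b* (-0.39, SE 0.125, adjusted p = 0.087) and *Fh1* (-0.52, SE 0.167, adjusted p = 0.091), with a lower change against WT in testes than in forebrain for all 3. At an unadjusted p under 0.05 these 3 passed, where 18.7% of all genes did, and DESeq2 called the same 3 (adjusted p = 0.0458, 0.033 and 0.048) among 1019 of all genes, as against 526 by edgeR. Without forebrain WT 3 the values were -0.41, -0.31 and -0.36.

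Set against glycolysis, the TCA cycle genes took a larger share in every mutant library. The counts of the 9 genes divided by those of the 17 glycolysis genes, a ratio within a library that no scaling touches, were 0.181 and 0.15 in WT testes. They were 0.318, 0.35 and 0.302 in *Ocn*+/− and 0.326, 0.304 and 0.307 in *Ocn*−/− testes. In forebrain they were 0.276, 0.25 and 0.248 in WT, 0.369, 0.366 and 0.354 in *Ocn*+/− and 0.366, 0.366 and 0.358 in *Ocn*−/− mice. All mutant libraries thus lay above all WT libraries of their organ, forebrain WT 3 being the lowest of its group. The mean was 0.165 ± 0.0213 (SD, n = 2) in WT, 0.323 ± 0.0242 (n = 3) in *Ocn*+/− and 0.312 ± 0.0122 (n = 3) in *Ocn*−/− testes. The gap between testes and forebrain was wide in WT (0.165 against 0.258 ± 0.0157) and narrower in *Ocn*−/− mice (0.312 against 0.363 ± 0.00462). The parts of the ratio moved unequally. Summed over the 9 genes the level was 947 to 987 CPM in WT and 969 to 1070 CPM in mutant testes, whereas the glycolysis sum went from 5470 to 6300 CPM in WT to 2850 to 3550 CPM in mutant testes. In forebrain the 9 genes summed to 1020 to 1150 CPM in WT and 1180 to 1300 CPM in mutant libraries, and glycolysis to 4090 to 4580 and 3240 to 3630 CPM. By edgeR 12 and 11 of 17 glycolysis genes fell in *Ocn*+/− and *Ocn*−/− testes, where 4.36% and 3.09% of all genes did, and 6 and 6 in forebrains, where 2.68% and 3.05% did. Of the 17 genes 0 rose, and *Ldha*, the A chain of lactate dehydrogenase, was at -1.54 and -1.49 in testes. Without the WT testis 2 the number was 4 and 5 in testes, and without the WT testis 1 it was 8 and 10.

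**Figure D3:**
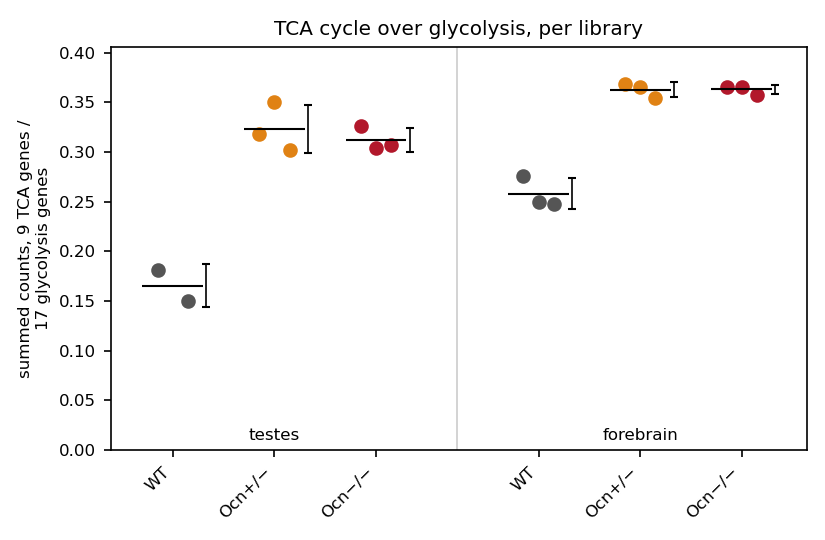
Summed counts of the 9 TCA cycle genes divided by those of 17 glycolysis genes (y axis, from 0) in each library, by genotype in testes and forebrain; lines are group means and bars beside them the SD. The WT testes lie at 0.181 and 0.15 and all mutant testes at 0.302 or above, and the WT forebrains at 0.248 to 0.276 and all mutant forebrains at 0.354 or above.

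The remaining enzymes of the cycle, 9 genes fixed as a list of their own, were described beside them, with no test between the lists. In forebrain all 9 were higher in both mutant genotypes (medians 0.14 and 0.11) and 0 passed by edgeR, with 2 at an unadjusted p under 0.05 in each, where 20.3% and 21.7% of all genes had such a p. In testes 2 of the 9 fell in *Ocn*+/− mice, where 4.36% of all genes did, and 0 passed in *Ocn*−/− mice, where 5.64% of all genes did, with medians of -0.15 and -0.16. *Sucla2*, the ADP-forming beta subunit that pairs with *Suclg1*, had 111 and 104 CPM in WT, 59.2, 64 and 81.3 in *Ocn*+/− and 62.5, 91.9 and 74.6 in *Ocn*−/− testes. All 6 mutant testes lay below WT, and *Sucla2* fell by 0.66 on the log2 scale in *Ocn*+/− testes (SE 0.162, adjusted p = 0.0225), with -0.5 (adjusted p = 0.078) in *Ocn*−/− testes, where it passed without the filter on low counts (-0.5, adjusted p = 0.0117) and without the *Ocn*−/− testis 2 (-0.65, adjusted p = 0.02). *Dld*, the dihydrolipoamide dehydrogenase shared by several complexes, had 175 and 163 CPM in WT, 107, 126 and 121 in *Ocn*+/− and 135, 167 and 138 in *Ocn*−/− testes. Only its *Ocn*+/− group was clear of WT, and it fell by 0.52 (SE 0.128, adjusted p = 0.0225), with -0.2 (adjusted p = 0.359) in *Ocn*−/− mice. Both calls were lost without either WT testis or without the *Ocn*+/− testis 1 (*Sucla2* -0.57 to -0.69, adjusted p = 0.0948 to 0.178, and *Dld* -0.45 to -0.55, adjusted p = 0.0987 to 0.207), and that of *Dld* also without the *Ocn*+/− testis 3 (0.0626). Of 5 tested relatives that work outside the mitochondrial cycle or beside it, such as the cytosolic *Mdh1*, 0 passed against WT in either organ. Of all genes 8.25% and 5.64% passed in *Ocn*+/− and *Ocn*−/− testes and 3.89% and 4.85% in the forebrains. Of 10 mitochondrial genes outside the cycle, 3 fell in *Ocn*+/− testes (*Tomm20*, -0.69, *Hspa9*, -0.46, and *Hspd1*, -0.38, an import receptor and a pair of matrix chaperones), where 4.36% of all genes did, and 0 fell in *Ocn*−/− testes (3.09% of all genes) or in forebrain (2.68% and 3.05%). In forebrain 9 of these 10 were higher in each mutant genotype, like most genes of the cycle, with medians of 0.11 and 0.08. There 0 of the 10 passed by edgeR, where 3.89% and 4.85% of all genes did.

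Between the organs 8 of the 9 genes passed by edgeR, 6 of them lower and 2 higher in testes, where 84.4% of all genes passed, 39.9% lower and 44.5% higher. *Cs* was lowest with a log2 difference of -1.2 (SE 0.0545, adjusted p = 1.98e-16), followed by *Idh3a* with -1.07 (SE 0.0576, 6.3e-15), *Mdh2* with -0.8, *Idh3b* with -0.47, *Ogdh* with -0.4 and *Dlst* with -0.2. *Suclg1* (0.44) and *Fh1* (0.26) were higher in testes, and *Idh3g* was at -0.08 (interval -0.2 to 0.05). With the replicate number as a block, *Dlst* (-0.2, adjusted p = 0.0942 by edgeR) and *Fh1* (0.25, adjusted p = 0.0588) no longer passed. With library size alone the median of all genes moved from 0.09 to 0.4, *Dlst* turned to 0.11 and no longer passed (adjusted p = 0.129), *Idh3g* turned to 0.24, which passed (adjusted p = 0.00288), while *Ogdh* was at -0.08 and no longer passed (adjusted p = 0.209). Of the remaining enzymes 4 were higher and 3 lower in testes, with *Suclg2* (2.42), the GDP-forming partner of *Suclg1*, *Idh2* (1.87), the NADP-dependent isocitrate dehydrogenase, and *Sdhb* (-0.62), a succinate dehydrogenase subunit, among those with the smallest p.

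Ratios of counts within a library, which no scaling touches describe the balance of partner subunits in each organ. These 5 pairs were chosen after their values had been seen, so their values are a description. *Idh3a* had 0.869 to 1.23 counts per count of *Idh3g* in the 8 testes and 1.78 to 2.47 in the 9 forebrains. The organs did not overlap, and the mean log2 ratio was 0.09 ± 0.17 (SD) in testes and 1.08 ± 0.16 in forebrain. *Idh3a* to *Idh3b* gave 0.805 to 1.17 in testes and 1.34 to 1.68 in forebrain, and *Idh3b* to *Idh3g* 0.971 to 1.17 and 1.31 to 1.49. *Ogdh* to *Dlst* overlapped, at 0.856 to 1.27 in testes and 1 to 1.3 in forebrain. Among the 5 pairs the beta subunits that share *Suclg1* lay farthest apart. *Suclg2* had 1.23 to 1.76 counts per count of *Sucla2* in testes and 0.235 to 0.283 in forebrain, a log2 difference of 2.52. Other genes hold 11.7% of the 50-base words of *Suclg2* and 0% of those of *Sucla2*. Within testes that ratio was at most 1.25 in WT and 1.34 to 1.76 in mutant libraries.

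**Figure D4:**
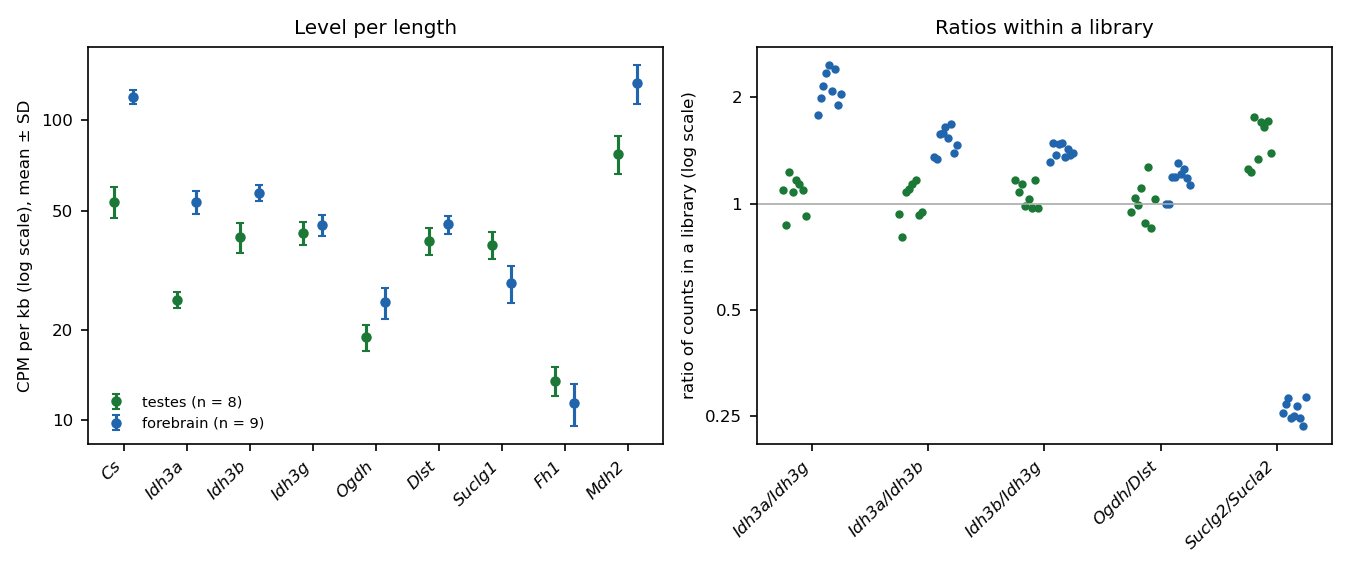
Left, level of each TCA cycle gene in CPM per kb of its longest coding transcript (y axis, log scale), mean ± SD over all genotypes of testes (green, n = 8) and forebrain (blue, n = 9). Right, ratio of counts of 2 genes within a library (y axis, log scale), 1 point per library; *Idh3a*/*Idh3g* lies at 0.869 to 1.23 in testes and 1.78 to 2.47 in forebrain and *Suclg2*/*Sucla2* at 1.23 to 1.76 and 0.235 to 0.283.

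The spread between libraries of a genotype differed among the genes. In forebrain the SD of log2 CPM within a genotype was smallest for *Ogdh* (0.0649), *Idh3a* (0.0727) and *Cs* (0.073) and largest for *Fh1* (0.201) and *Mdh2* (0.179). This order rested on WT 3, without which, in a setting chosen after seeing the data, *Fh1* was at 0.0806, *Dlst* had the smallest SD (0.043) and *Mdh2* the largest (0.133). In testes it ran from 0.0702 for *Idh3b* to 0.156 for *Suclg1*.

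Genes with a pattern most like that of the list were sought over 14590 genes tested in both organs. The measure was Pearson's r between log2 CPM centered within each organ and the mean of the 9 standardized members, over 17 libraries, which share the WT and mutant groups. Highest were *Mrpl12* (0.93), *Atp6v1b2* (0.91), *Sdhaf1* (0.9), *Atp5f1b* (0.9) and *Cpt2* (0.9). Without forebrain WT 3 they were *Gpsm2* (0.89), *Tfe3* (0.88), *Sptb* (0.87), *Atp6v1b2* (0.86) and *Arl6ip4* (0.83), with *Atp6v1b2* the only name in both. The members themselves, each part of the mean, reached 0.4 (*Cs* and *Idh3b*) to 0.84 (*Mdh2*), or 0.07 (*Idh3b*) to 0.75 (*Ogdh*) without that library.

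The promoters were searched for motifs known from genes of respiration and hypoxia. RefSeq starts on GRCm38.p6, an earlier build than that of the counts, were found for 8 of 9 genes, and the 250 bases before each start were searched on both strands. A gene was counted if any of its windows matched. *Ogdh* had 6 windows, while 27025 genes had 32851. An NRF1-type motif, GCGCNTGCG, was found for 2 of 8 genes (*Ogdh* and *Idh3g*) and for 3 of 17 glycolysis genes, against 5.88% of the 27025 genes. The cAMP response element TGACGTCA was found for 2 of 8 (*Ogdh* and *Mdh2*) and for 1 of 17 glycolysis genes, against 1.77%. The estrogen-related receptor motif AAGGTCA was found for 0 of 8 and for 1 of 17, against 4.7%. The core of the hypoxia response element, ACGTG, which also lies in the E-box CACGTG, was found for 2 of 8 (*Ogdh* and *Idh3g*) and for 7 of 17 glycolysis genes, against 18.5%. *Ogdh*, the gene called in forebrain, has 6 RefSeq starts, and the windows chr11:6291347-6291596 and chr11:6292308-6292557 (both + strand) are shown for it. *Mdh2* (chr5:135778399-135778648, + strand) and *Idh3g* (chrX:73786898-73787147, - strand) are the other genes with a match and are shown beside it. Each is written from 5′ to 3′ in the direction of the gene, and capitals mark the motifs, which overlap where ACGTG on the other strand runs into TGACGTCA. A match describes these letters only.
*Ogdh* first start: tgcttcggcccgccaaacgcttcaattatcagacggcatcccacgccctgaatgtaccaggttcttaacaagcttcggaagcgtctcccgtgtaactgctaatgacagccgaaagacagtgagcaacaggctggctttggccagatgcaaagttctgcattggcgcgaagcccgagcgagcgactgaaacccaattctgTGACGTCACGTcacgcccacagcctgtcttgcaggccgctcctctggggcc
*Ogdh* later start: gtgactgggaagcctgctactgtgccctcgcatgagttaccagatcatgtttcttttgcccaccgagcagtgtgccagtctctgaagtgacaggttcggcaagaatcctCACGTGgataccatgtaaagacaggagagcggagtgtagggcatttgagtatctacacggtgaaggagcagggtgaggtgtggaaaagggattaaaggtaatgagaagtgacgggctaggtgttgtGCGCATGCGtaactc
*Mdh2*: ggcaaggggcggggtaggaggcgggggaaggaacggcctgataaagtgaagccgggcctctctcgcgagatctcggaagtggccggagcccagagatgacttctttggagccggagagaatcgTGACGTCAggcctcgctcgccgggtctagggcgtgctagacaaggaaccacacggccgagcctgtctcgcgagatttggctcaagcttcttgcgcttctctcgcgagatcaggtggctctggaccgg
*Idh3g*: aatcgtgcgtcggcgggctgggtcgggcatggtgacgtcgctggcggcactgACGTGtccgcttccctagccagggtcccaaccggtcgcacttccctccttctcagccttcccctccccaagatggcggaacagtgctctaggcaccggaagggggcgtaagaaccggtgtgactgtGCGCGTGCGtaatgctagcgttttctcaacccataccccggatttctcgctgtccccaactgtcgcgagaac
In the first *Ogdh* window the cAMP response element overlaps the hypoxia core on the other strand, and in the later one an E-box lies upstream of the NRF1-type motif.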

How the data were processed

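RNA of 8 testes and 9 forebrains at postnatal day 1 was sequenced by the authors, and samples were grouped by tissue and genotype in their labels. According to the submitters' processing notes and the study's methods, reads were trimmed with Trim Galore 0.6.6, aligned with STAR 2.7.8a to GRCm39 and counted with RSEM 1.3.3. The authors deposited expected counts from RSEM, not normalized, and these need not be whole because a read that fits several genes is divided among them. The GENCODE release and the strandedness are not given in the sources used here. Gene names, positions and lengths came from GENCODE M39, where 54749 of 55359 identifiers were found. Members and lists were chosen with earlier results of these data known.

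Expected counts were rounded and fitted with edgeR 4.0.16 in R 4.3.3, each organ alone with all genotypes (16361 genes in testes, 16076 in forebrain) and both organs together (17800 genes), with filterByExpr, TMM and robust quasi-likelihood tests without covariates, as edgeR is the tool the study names. Tests were two-sided, and calls were made at 0.05 after Benjamini-Hochberg adjustment over all genes. Nothing states that libraries of a group came from separate litters, so p-values measure only the spread between these libraries. Nor do the labels say whether testes and forebrains came from the same pups. The joint fit, which gave the p-values between organs, did not model a shared pup. Levels between genes are per kb. Named were all 9 members, at most 4 called genes of another list per comparison by p, the gene nearest to a list's median where useful, and the 5 genes most like the members. Alternatives were RLE scaling, library size alone, DESeq2 1.42.0, other filters, the replicate number as a block, only the 2 genotypes compared and each library left out. The fit was tested on simulated counts. Subunit ratios are a description. The value of 1 gene that the rule for named genes covers is not reported here.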

Additional observations from a re-analysis of the deposited data

Results flagged for a closer look

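A joint fit tested whether the mean change of both mutant genotypes against WT differed between testes and forebrain, and values are log2 differences, testes minus forebrain, with edgeR's adjusted p. Among enzymes of the TCA cycle outside the 9 genes it passed for *Sucla2* (-0.76, adjusted p = 0.017) and *Dld* (-0.52, adjusted p = 0.0343). Of the mitochondrial genes outside the cycle it passed for *Tomm20* (-0.69, adjusted p = 0.0118) and *Hspa9* (-0.51, adjusted p = 0.031). Of 17 glycolysis genes 8 passed as lower and 1 as higher, where 1.71% and 1.24% of all genes did. These 9 became 3 without the WT testis 2 and 7 without the WT testis 1, and the genes called among all went from 526 to 93 and 129. Of the 9 glycolysis genes, those with the smallest p were *Pgk1* (-1.33, adjusted p = 1.07e-05), *Ldha* (-1.19, adjusted p = 4.35e-05), *Tpi1* (-0.83, adjusted p = 0.00115) and *Pkm* (-0.71, adjusted p = 0.00811). *Pgk1* shares 68% of its 50-base words with other genes. Single values were not screened for outlying libraries, since groups held 2 or 3.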

How the results depend on the processing

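With 3 or fewer libraries a group, and 2 WT testes, single libraries decided calls, and pup genotype, mother and litter are confounded against WT. Of 486 fold changes of the 9 genes under other settings, 465 kept their call or lack of one (3 of them, not called, changed sign), 3 lost and 16 gained a call, and 2 reversed, both between organs with library size alone, *Idh3g* to 0.24, then called, and *Dlst* to 0.11, then no longer called. Of 765 with a library left out, 749 did (18 of them, not called, changed sign). With library size alone, the median of all genes moved to 0.08 and 0.07 in testes and to 0.09 and 0.11 in forebrain, and the share of higher calls went from 47.2% to 68.1%, 45.1% to 65.2%, 31% to 47.7% and 37.2% to 64.5% (*Ocn*+/− and *Ocn*−/− testes, then forebrains), and from 52.8% to 63% between organs. It also gave 2 TCA cycle genes in *Ocn*+/− testes, 369 of all genes (main 625) in *Ocn*+/− forebrain and 2 for *Ocn*−/− against *Ocn*+/− forebrain. Without a filter on low counts, all genes called were 2149 and 1763 in testes, 1265 and 1502 in forebrain, 252 and 34 for *Ocn*−/− against *Ocn*+/− in testes and forebrain and 1023 for the organ difference in response, with 2, 4 and 1 TCA cycle genes in *Ocn*+/− forebrain, *Ocn*−/− forebrain and that difference. At least 10 counts in every library gave 3 and 0 genes for *Ocn*−/− against *Ocn*+/− in testes and forebrain. DESeq2 gave 70 and 5 there, 1019 for the difference in response, and 1, 3 and 3 TCA cycle genes in *Ocn*+/− testes, *Ocn*−/− forebrain and that difference. With only the 2 genotypes compared, *Ocn*+/− testes had 2084 genes called (main 1350), 1 of the list, and *Ocn*−/− against *Ocn*+/− forebrain 0. Within an organ, deviations of same-numbered libraries from their group means correlated at -0.09 to 0.09 in testes and -0.04 to 0.15 in forebrain. Those of differently numbered libraries correlated at -0.12 to 0.12 and -0.2 to 0.11. With 2 or 3 libraries a group, these values cannot tell whether samples were paired by the replicate number. With that number as a replicate block, 3 TCA cycle genes were called in *Ocn*−/− forebrain (*Suclg1*, 0.39, adjusted p = 0.035, and *Fh1*, 0.41, adjusted p = 0.0301, beside *Ogdh*), 1 gene for *Ocn*−/− against *Ocn*+/− testes, and *Dlst* (adjusted p = 0.0942) and *Fh1* (0.0588) were lost between organs. Leaving out single libraries, all genes called ranged from 118 (without WT testis 2) to 2019 in *Ocn*+/− testes, 85 (without WT testis 2) to 1559 in *Ocn*−/− testes, 0 to 47 for *Ocn*−/− against *Ocn*+/− testes, 183 to 830 and 189 to 919 in *Ocn*+/− and *Ocn*−/− forebrain (lowest without WT 3), 1 to 2 for *Ocn*−/− against *Ocn*+/− forebrain, 93 to 1070 for the difference in response and 14797 to 14960 between organs. TCA cycle genes ranged over 0 to 1, 0 to 0, 0 to 1, 0 to 2, 0 to 1 and 8 to 8 in *Ocn*+/− testes, *Ocn*−/− testes, *Ocn*+/− forebrain, *Ocn*−/− forebrain, the difference and the organs, and glycolysis genes over 4 to 12, 5 to 11, 4 to 7, 4 to 6 and 3 to 9 in the first 5. *Mdh2* over *Fh1* per length in WT testes was 4.56, but 2.56 with the union of exons and 4.84 with the Ensembl canonical transcript, an alternative chosen after seeing the data. The count ratio to glycolysis against WT testes, 1.95 and 1.89, was 1.61 and 1.57 without *Gapdh*, *Pgk1*, *Ldha*, *Aldoa* and *Eno1*. Where no construction of the setting shows it, the cause was not tested.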
